A study of Mus musculus with 2 samples.

Results

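The genes examined here encode the subunits of RNA polymerases I, II and III, the Mediator complex and the general transcription factors. They were the protein-coding RefSeq genes of the mm10 mouse genome whose symbols begin with Polr1, Polr2 or Polr3, with Med or Taf followed by a digit, or with Gtf2 or Gtf3. In all, 105 of 21000 protein-coding genes met this rule. They were 28 polymerase subunit genes, 30 Mediator genes, 24 genes of TBP-associated factors (TAFs), 16 genes of the GTF2 class and 7 of the GTF3 class. The rule used symbols only and no measured value. Every gene was read for a binding peak of NRF1 at its promoter, and the complexes were then compared.

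The study addressed how the glucocorticoid receptor, the demethylase LSD1 and NRF1 meet on target genes of skeletal muscle. Binding of NRF1 was mapped by ChIP-seq, in which DNA bound by a protein is recovered with an antibody and sequenced. The series has 2 libraries in 1 group, both labelled as NRF1 antibody, skeletal muscle and wild-type genotype. One list of 3226 peaks was analysed, and its peak names carry the title of the library of replicate 1. The reporting summary describes the library of replicate 2 as the input DNA, against its label, and no values of that library were used here. The chromatin came from nuclear extracts of whole muscle, so a peak cannot be assigned to a cell type of the tissue, and tissue markers cannot be checked in a list of peaks. No treatment and no age are given in the labels. Nothing below has a replicate error, and the read depth behind the peaks is unknown.

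Nuclear respiratory factor 1 (NRF1) acts as a dimer on a GC-rich palindrome close to the starts of many housekeeping genes, and it is best known in muscle for genes of the mitochondrial respiratory chain. RNA polymerase I makes the large ribosomal RNA precursor, polymerase II makes messenger RNA, and polymerase III makes transfer RNA and other short RNAs, and some subunits are shared among the enzymes. The general transcription factors place polymerases on promoters, and Mediator passes signals from DNA-bound activators to polymerase II.

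A promoter peak had its summit, the position of highest signal, from 1000 bp before to 100 bp after a transcription start. The list held 2607 promoter peaks, counted at starts of known coding and non-coding transcripts. At starts of coding transcripts, 2804 protein-coding genes had a promoter peak. A peak's strength is the fold enrichment deposited by the authors, that is, how many times the signal at its summit exceeded the control background. The NRF1 palindrome GCGCATGCGC was looked for around each summit, up to 100 bp away on either strand, with at most 1 mismatch. The sequences under the peaks of these genes are given first, because no copy near these promoter summits was the exact palindrome. All are from RefSeq GRCm38.p6, the mm10 assembly, on the strand of the gene, 5′ to 3′, with the copy in capitals and 10 bases on each side.

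Copies next to the summits of some polymerase subunit genes were as follows, at chr5:77310394-77310423, chr5:136116553-136116582, chr16:20717775-20717804 and chr10:80039728-80039757. Polr2c and Polr2f also had a copy, and its form is given further below.
Polr2b: gtcatcactcGCGCATGCGTagttcaagtc
Polr2j: ttctaaactgACGCATGCGCacggctcgcc
Polr2h: tgcagcccgtGCGCACGCGCcctcggcctc
Polr2e: ccagcccttgGCGCAGGCGCactgccgggg

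Copies of some Mediator genes lay at chr9:15279944-15279973, chr8:72548378-72548407, chr5:45520268-45520297, chr17:47611223-47611252, chr11:46436835-46436864 and chr14:73510020-73510049. They are shown because they cover 6 different single mismatches.
Med17: ctggcccttcGCGCATGCTCatagtgttcc
Med26: gcgcctgcgcGCGCGTGCGCacaatcaata
Med28: caggctgcccGCGCCTGCGCacacaggccc
Med20: agccgatactGCGCTTGCGCtgtgtgttcc
Med7: atgcgaaagtGCGCATGTGCaacatcttta
Med4: agctcacactGCGCATGCGAcggctggtgg

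For some TAF genes and for both genes of TFIIF, the copies lay at chr4:132274301-132274330, chr2:179976772-179976801, chr1:183388896-183388925, chr17:57011291-57011320 and chr14:76010915-76010944.
Taf12: agtaccatctGCGCCTGCGCtagtgaggcg
Taf4: gcgtgtcggcGCGCCTGCGCagtgggccgc
Taf1a: gggcgtggccACGCATGCGCactacctgaa
Gtf2f1: tcaggctctaACGCATGCGCagagagttag
Gtf2f2: acgtagtcgtGCGCAGGCGCagttcttcat

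Gtf3a had the strongest peak of the 105 genes, and its promoter is shown over 120 bases before the start, chr5:146948537-146948656, because these bases hold 2 of the 3 copies in the promoter.
Gtf3a: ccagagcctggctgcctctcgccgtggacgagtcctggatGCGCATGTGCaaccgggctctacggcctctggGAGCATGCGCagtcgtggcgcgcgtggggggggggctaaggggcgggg

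NRF1 promoter peaks were found at 35 of the 105 genes, or 33.3% (Wilson 95% interval 25 to 42.8%). Over all protein-coding genes the share was 13.4%. The interval covers counting error over genes only. Of the 2804 genes with a promoter peak, 2518 had a CpG-rich start. A start was called CpG-rich when the sequence within 200 bp had a GC content of at least 55% and an observed to expected CpG ratio of at least 0.65. This held for 90 of the 105 genes (85.7%) and for 49.4% of all genes. Among genes with a CpG-rich start, 24.2% had a promoter peak overall and 33 of 90 (36.7%) did among the genes studied here.

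**Figure D1:**
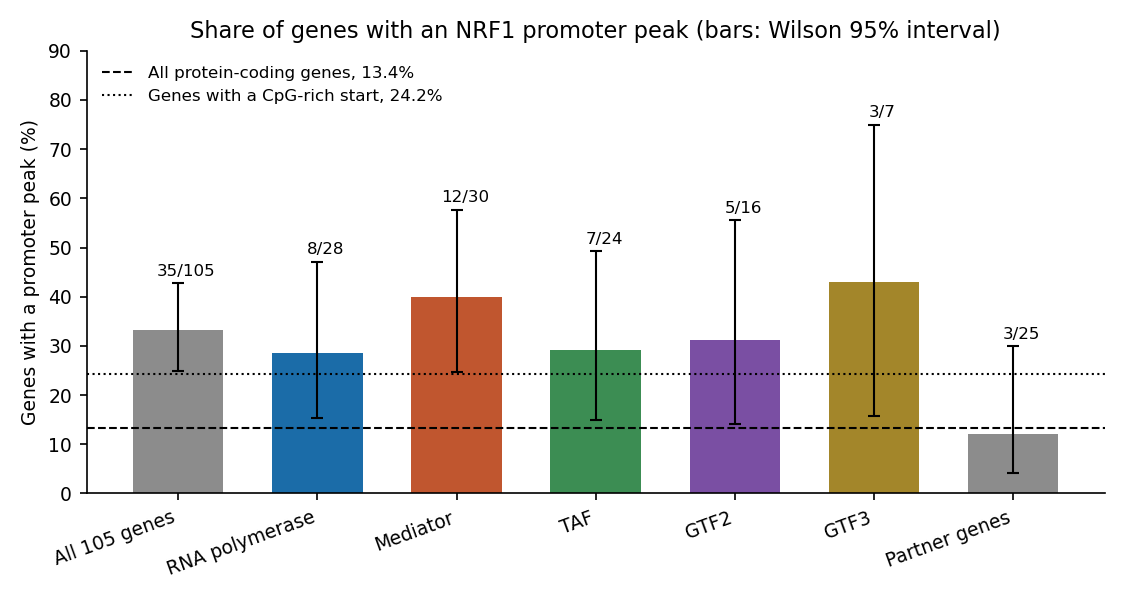
Share of genes with an NRF1 promoter peak (y axis, %) for all 105 genes, for each class and for 25 partner genes outside the symbol rule. Bars are shares, vertical lines are Wilson 95% intervals, and the horizontal lines mark all protein-coding genes (13.4%) and those with a CpG-rich start (24.2%); class shares run from 28.6 to 42.9% with intervals that overlap widely.

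The 5 classes did not separate at this number of genes. Promoter peaks were found at 12 of 30 Mediator genes (40.0%, interval 24.6 to 57.7%) and at 3 of 7 GTF3 genes (42.9%, 15.8 to 75%). Of the polymerase subunit genes, 8 of 28 had one (28.6%, 15.3 to 47.1%). Counts were 7 of 24 for TAF genes (29.2%, 14.9 to 49.2%) and 5 of 16 for GTF2 genes (31.2%, 14.2 to 55.6%). Each interval contained the shares of the other classes. Of the 5 intervals, 1 included neither 13.4% nor 24.2%, that of Mediator, whose lower bound was 24.6%. With CpG-rich starts alone, the counts became 12 of 27 for Mediator, 7 of 23 for polymerases, 6 of 20 for TAFs, 5 of 15 for GTF2 and 3 of 5 for GTF3. The complexes within each class, drawn in the map of complexes, hold 1 to 17 genes, so their shares are less precise still.

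**Figure D2:**
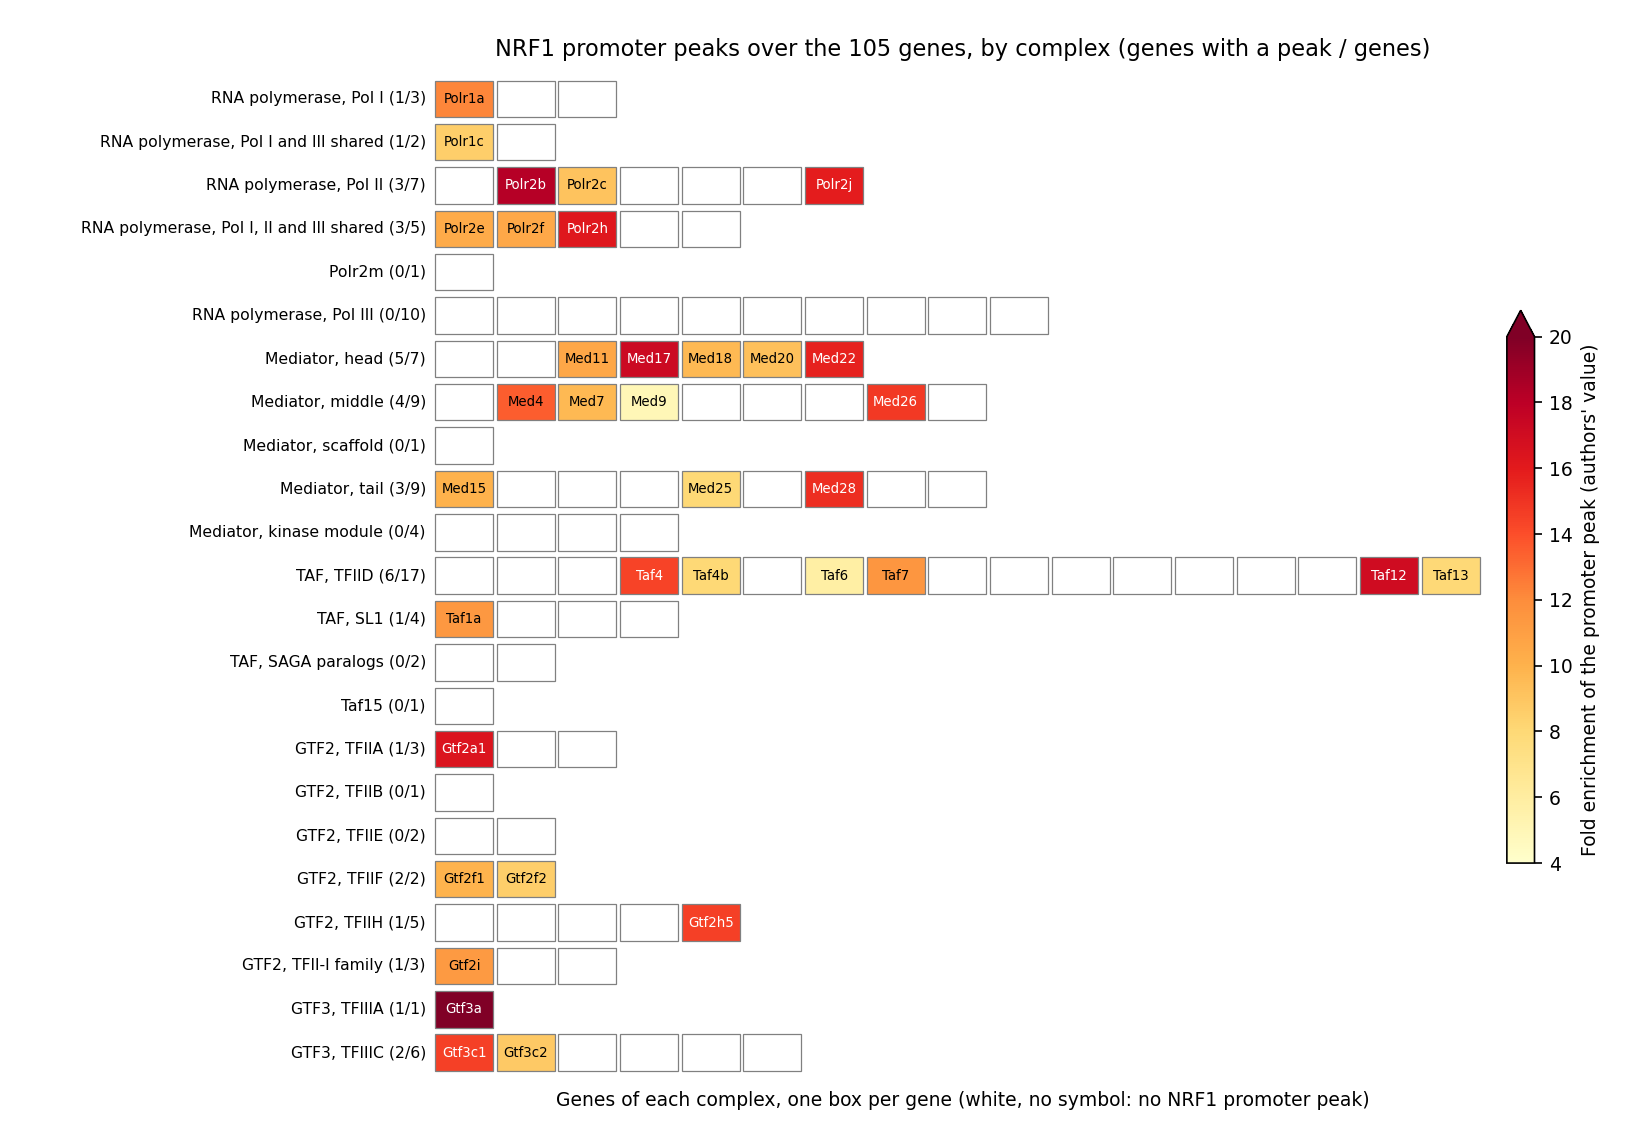
Each box is 1 of the 105 genes, arranged by complex in rows, and its colour gives the fold enrichment of its NRF1 promoter peak on a scale that ends at 20 (white: no promoter peak), with symbols for the genes that have one. The 10 Pol III-specific genes and the 4 kinase module genes of Mediator are all white, while 5 of 7 Mediator head genes are coloured.

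Among polymerase genes, NRF1 promoter peaks were found at subunits of Pol II and at shared subunits. Within the symbol rule, 1 of 3 subunits specific to Pol I had one, and none of those used by Pol III alone did. Polr2b, which forms the catalytic centre of Pol II together with Polr2a, had the strongest of these promoter peaks with a fold enrichment of 18.2. Its peak at chr5:77309989-77310741 had a −log10 q-value of 56.4, its summit lay 87 bp before the start, and 2 copies of the motif were near. The same peak serves Noa1, a gene on the opposite strand whose start is 398 bp away. Polr2j and Polr2c, partners that start the assembly of Pol II, had fold enrichments of 15.9 and 9.16. Polr2j was bound 106 bp before its start (chr5:136116370-136116724, −log10 q-value 48.8). The Polr2c summit lay 30 bp inside the gene.

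Of the 5 subunits that all polymerases share, Polr2h, Polr2f and Polr2e had promoter peaks (60%, interval 23.1 to 88.2%). The interval holds the 24.2% of genes with a CpG-rich start. Polr2h was the strongest at 16.2 (chr16:20717676-20717887, −log10 q-value 45.5, summit 46 bp before the start). Polr2f and Polr2e were nearly equal at 10.5 and 10.4. Polr2k and Polr2l, also shared, had no promoter peak. The remaining Pol II subunits without one were Polr2a, Polr2d, Polr2g and Polr2i, and the Pol II-associated Polr2m had none either. Subunits were also counted by enzyme, as far as the symbol rule covers them. Promoter peaks were found at 5 of 10 Pol I genes (50%, 23.7 to 76.3%) and 6 of 12 Pol II genes (50%, 25.4 to 74.6%). For Pol III it was 4 of 17 (23.5%, 9.56 to 47.3%), near the 24.2% of all genes with a CpG-rich start. The share over all genes was 13.4%. These counts share the common subunits, and their intervals overlap. They leave out subunits that the rule misses, Twistnb, Znrd1 and Cd3eap of Pol I and Crcp of Pol III. None of these had a promoter peak, so the shares of the complete enzymes are lower.

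For Pol I, Polr1a, its largest catalytic subunit, had a peak of 12.2 (chr6:71908845-71909272, −log10 q-value 26.4) with its summit 17 bp after the start, while Polr1b and Polr1e had none. Polr1c, which Pol I and Pol III share, had a peak of 8.58 (chr17:46247887-46248106, −log10 q-value 14.6, summit 27 bp after the start), and its partner Polr1d had none. Neither peak had a motif copy within 100 bp of its summit. Both lay in promoters shared with an opposite gene, Ptcd3 at 291 bp for Polr1a and Yipf3 at 35 bp for Polr1c. The list does not tell which gene of such a pair a peak belongs to.

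None of the 10 Pol III-specific genes, among them Polr3a and Polr3b of the catalytic centre and the paralogs Polr3g and Polr3gl, had a promoter peak, which leaves a share of up to 27.8% within the Wilson interval. The other 18 polymerase genes had 8 (44.4%, 24.6 to 66.3%), and both intervals cover 24.6 to 27.8%. Of the 10, 9 had a CpG-rich start, and their median GC content was 61.7%. None of their promoters held a motif copy with at most 1 mismatch, against 7 of the 18 others and 12.1% of all promoters. The interval of 0 of 10, up to 27.8%, holds the shares over all genes for the motif (12.1%) and for a peak (13.4%, or 24.2% at CpG-rich starts). With 10 genes, counts of 0 therefore cannot be told apart from these shares. The weak peak of Polr3b had its summit 351 bp inside the gene in an intron, with a fold enrichment of 4.27 and a −log10 q-value of 3.60. It counted as a promoter peak once promoters reached 500 bp past the start.

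**Figure D3:**
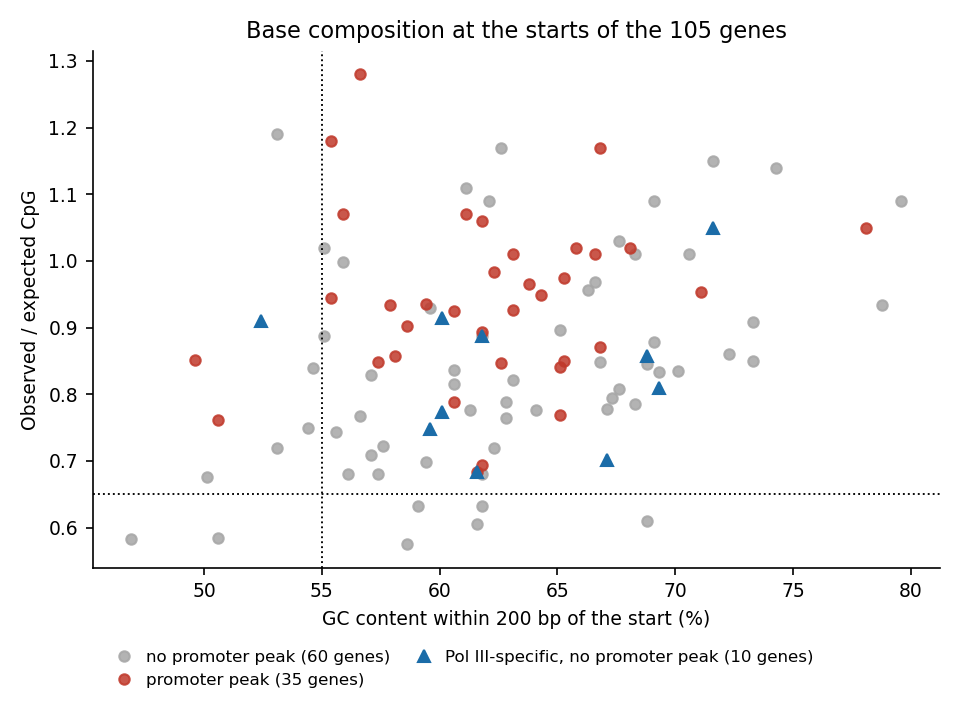
GC content (x axis, %) against the observed to expected CpG ratio (y axis) within 200 bp of the start, 1 point per gene, with dotted lines at the limits for a CpG-rich start, 55% and 0.65. The 35 genes with a promoter peak (red), the 10 Pol III-specific genes (blue triangles) and the other 60 genes without a peak (grey) overlap, and 9 of the 10 triangles lie beyond both limits.

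Within Mediator, the share of genes with a promoter peak was highest in value at the head, the module that contacts Pol II. There, 5 of 7 genes had one (71.4%, interval 35.9 to 91.8%), against 13.4% of all genes and 24.2% of those with a CpG-rich start. The interval overlaps those of the middle (18.9 to 73.3%) and the tail (12.1 to 64.6%). Med17, around which the head is built, had the strongest peak at 17.2 (chr9:15279849-15280074, −log10 q-value 40.7), with its summit 51 bp before the start and the motif 1 bp from the summit. Med22 followed at 15.7 (chr2:26910529-26910758, −log10 q-value 39.5, summit 9 bp before the start), without a motif copy within 100 bp. It shares that promoter with the ribosomal protein gene Rpl7a, whose start is 165 bp away on the opposite strand. Med11 had a fold enrichment of 10.6, and Med18 and Med20, which form the mobile part of the head, had 9.65 and 9.29. The Med20 summit lay 325 bp before the start, inside an exon of Bysl, and the overlapping Gm20517 has the same start. Med6 and Med8 had no promoter peak.

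In the middle module, which links the head to the tail, 4 of 9 genes had a promoter peak (44.4%, interval 18.9 to 73.3%). That interval holds the 24.2% of genes with a CpG-rich start and lies above the 13.4% of all genes. Med26, which recruits elongation factors, had 14.8 (chr8:72548227-72548514, −log10 q-value 43.6, summit 75 bp before the start, 2 motif copies), Med4 had 13.5 and Med7 had 9.65. Med9 had 4.96, the lowest value of the 35 genes, with a −log10 q-value of 6.69 and no motif. It was the only one below a fold enrichment of 5. Med1, the subunit that nuclear receptors contact, had no promoter peak, nor did Med10, Med19, Med21 and Med31.

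Of the 9 tail genes, through which many activators act, Med28 had 15.2 (chr5:45520134-45520466, −log10 q-value 33.6, summit 47 bp after the start), Med15 had 10.0 and Med25 had 8.05. Tail genes without one were Med16, Med23, Med24, Med27, Med29 and Med30. The scaffold gene Med14 had none. The kinase module, a detachable part that blocks the contact with Pol II, had none at Med12, Med12l, Med13 and Med13l, although all 4 had a CpG-rich start. With 4 genes, that count leaves a share of up to 49%, a range that holds the 13.4% of all genes and the 24.2% at CpG-rich starts. Outside the symbol rule, the kinase gene Cdk19 had a promoter peak of 10.2, and Cdk8 and Ccnc had none. Head and middle together had 9 of 16 (56.2%, 33.2 to 76.9%), and tail, scaffold and kinase module had 3 of 14 (21.4%, 7.57 to 47.6%), with intervals that overlap. The first pool joins the modules with the highest shares and the second those with the lowest, so their order follows from the grouping. For this reason the first interval is not read against the 13.4% of all genes or the 24.2% at CpG-rich starts. The second interval holds both of these shares. Descriptions of Mediator differ on whether Med27 to Med30 belong to the head or the tail. Counted with the head, they gave 6 of 11 genes (54.5%, 28 to 78.7%).

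TAFs join TBP, the TATA-binding protein, in complexes that mark the promoter. Of the 17 genes of TFIID, the TAF complex of Pol II, 6 had a promoter peak (35.3%, interval 17.3 to 58.7%). That interval holds the 24.2% of genes with a CpG-rich start and lies above the 13.4% of all genes. Taf12 had 17 (chr4:132274197-132274491, −log10 q-value 58.8, summit 61 bp before the start) and its histone-fold partner Taf4 had 14.4 with a summit 127 bp before the start. Taf4b, the paralog of Taf4, had 8.03. In further histone-fold pairs, Taf6 had 5.84 and Taf9 none, Taf13 had 7.97 and Taf11 none, and Taf10 had none, as had its partners Taf3 and Taf8. Taf7, which binds Taf1 and limits its activity, had 11.5, while Taf1 itself, Taf2 and Taf5 had none. Taf7l, Taf7l2 and Taf9b had none. Taf6 was the weakest TAF peak and lay at a start that was not CpG-rich, 84 bp from the opposite gene Cnpy4.

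SL1, which brings Pol I to ribosomal DNA, had a peak at Taf1a (11.4, chr1:183388773-183389065, −log10 q-value 31.2, summit 8 bp after the start) and none at Taf1b, Taf1c and Taf1d. The paralogs Taf5l and Taf6l, which act in the SAGA complex, and the RNA-binding Taf15 had none.

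Among general factors of Pol II, TFIIF, which escorts the polymerase to the promoter, had peaks at both of its genes. With only 2 genes the interval runs from 34.2 to 100%, beside 13.4% of all genes and 24.2% at CpG-rich starts. Gtf2f1 had 9.96 (chr17:57011123-57011538, −log10 q-value 23, summit 37 bp after the start) and Gtf2f2 had 8.62. TFIIA, which steadies TBP on DNA, had a peak of 16.4 at Gtf2a1 (chr12:91589978-91590297, −log10 q-value 48.2) and none at Gtf2a2. Gtf2a1 has 2 starts, and the summit lay 464 bp before one and 374 bp after the other, in an intron of the longer transcript. TFIIH, which opens the promoter and phosphorylates Pol II, had a peak at Gtf2h5, its smallest subunit (14.5, chr17:6079725-6079936, −log10 q-value 27.8, summit 15 bp after the start, shared with Serac1 at 89 bp). Its other 4 genes within the symbol rule, Gtf2h1, Gtf2h2, Gtf2h3 and Gtf2h4, had none. Ercc2, a helicase gene of TFIIH that the rule misses, had a promoter peak of 29.5. The other TFIIH genes that the rule misses, Ercc3, Cdk7, Ccnh and Mnat1, had none. Gtf2b, the single gene of TFIIB, and the TFIIE genes Gtf2e1 and Gtf2e2 had none. In the TFII-I family, whose members are signal-responsive factors and not part of the basal machinery, Gtf2i had 11.3 (chr5:134314612-134314994, −log10 q-value 38.7, summit 50 bp before the start), and Gtf2ird1 and Gtf2ird2 had none.

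Among factors of Pol III, Gtf3a stood far above the other genes. It encodes TFIIIA, the zinc-finger protein that starts assembly on the smallest ribosomal RNA genes. Its fold enrichment was 36.2, rank 16 of all 2607 promoter peaks, with a −log10 q-value of 94.8 (chr5:146948408-146948788). The next of the 35 genes, Polr2b, ranked 461. The Gtf3a summit lay 44 bp before the start and on the copy nearest to it, at 0 bp from its centre. Of the 6 genes of TFIIIC, which binds inside transfer RNA genes, Gtf3c1 had 14.5 (chr7:125707455-125707920, −log10 q-value 42.3, summit 40 bp before the start) and Gtf3c2 had 8.82. The Gtf3c1 promoter is shared with D430042O09Rik, 182 bp away on the opposite strand. Gtf3c3, Gtf3c4, Gtf3c5 and Gtf3c6 had none. The share of TFIIIC was thus 33.3%, with an interval (9.68 to 70%) that holds 13.4% and 24.2%. TFIIIA, TFIIIC and the Pol III-specific subunits together gave 3 of 17 genes (17.6%, 6.19 to 41.0%). That interval holds the 13.4% of all genes and the 24.2% of genes with a CpG-rich start.

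Further genes of these complexes that the symbol rule misses were read in the same way, and 3 of 25 had a promoter peak (12%, interval 4.17 to 30%), a share near the 13.4% of all genes. All 3 were among the 22 with a CpG-rich start (13.6%), against 24.2% of all such genes. Ercc2, a helicase of TFIIH, had 29.5, rank 64. Cdk19, the paralog of the Mediator kinase Cdk8, had 10.2. Snapc1, of the complex that activates small nuclear RNA genes, had 7.40. Tbp, the protein that TFIID and SL1 are built on, had none. The kinase genes Cdk7 and Cdk8, the cyclin genes Ccnh and Ccnc, the helicase gene Ercc3 and the TFIIIB genes Brf1, Brf2 and Bdp1 had none either. For Bdp1 a summit of fold enrichment 6.15 lay 3949 bp before the start. The others were Tbpl1, Tbpl2, Mnat1, Snapc2, Snapc3, Snapc4, Snapc5, Ubtf, Rrn3, Crcp, Twistnb, Znrd1 and Cd3eap. The share of these partner genes differed in value from that of the 105 genes, and the intervals overlap between 25 and 30%.

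Of 9 paralog pairs compared, 5 had no promoter peak at either gene, 1 had a peak at both and 3 had a peak at 1 gene, beside 70 of the 105 genes without one. Neither gene had one in the pairs Med12 and Med12l, Med13 and Med13l, Taf9 and Taf9b, Taf5 and Taf5l, and Polr3g and Polr3gl. Taf4 and Taf4b both had one, at 14.4 and 8.03. In the remaining pairs, the peak was at the family member without the suffix: Taf6 and not Taf6l, Taf7 and not Taf7l, Gtf2a1 and not Gtf2a1l.

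The peaks of the 35 genes were of ordinary strength. Their median fold enrichment was 11.3, against 11.1 for all 2607 promoter peaks, with quartiles of 9.22 and 15 against 7.90 and 16.4. For the strongest promoter peaks of all protein-coding genes, without those at non-coding starts only, the median was also 11.3. Of the 35, 18 lay above the overall median, 5 above the upper quartile and 2 below the lower one. Class medians were 11.3 for polymerases (8.58 to 18.2), 10.3 for Mediator (4.96 to 17.2), 11.4 for TAFs (5.84 to 17), 11.3 for GTF2 (8.62 to 16.4) and 14.5 for the 3 GTF3 genes (8.82 to 36.2). Median widths were 308 bp for the 35 peaks and 296 bp for all promoter peaks.

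**Figure D4:**
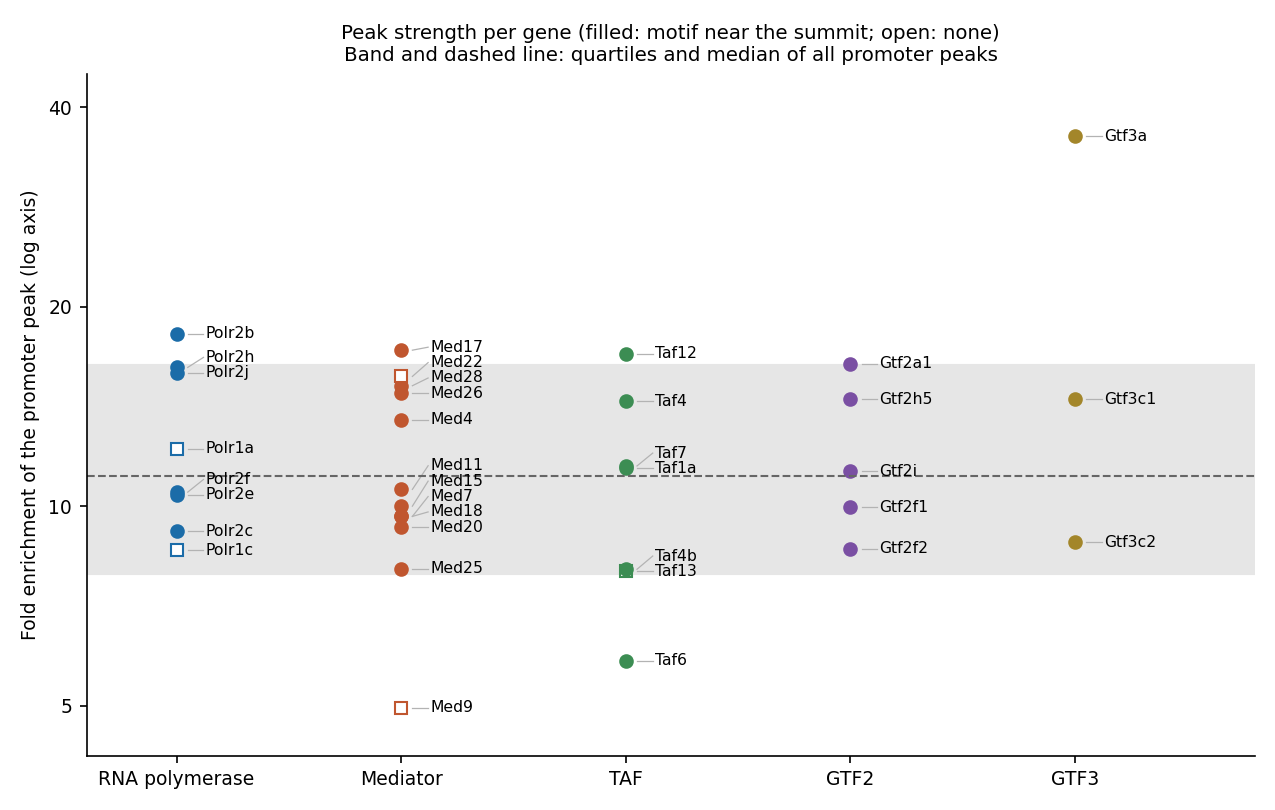
Fold enrichment of the promoter peak (y axis, log scale) for each of the 35 genes, by class, with filled symbols where a motif copy lay within 100 bp of the summit and open squares where none did. The grey band spans the quartiles of all promoter peaks (7.90 to 16.4) and the dashed line is their median (11.1); Gtf3a at 36.2 lies apart from the rest.

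Summits clustered at the start. Of the 35, 31 (88.6%) lay within 100 bp of a start of their own gene. Measured to the nearest start of any gene, 32 (91.4%) did, against 71.2% of all promoter peaks, and the median position was 42 bp before that start, against 50 bp. Relative to their own gene, the summits lay before the start in 24 genes and at or after it in 11. By annotation, 21 lay upstream of the gene and outside known transcripts, 12 in an untranslated region or an exon of a non-coding transcript, and 2 in an intron. A promoter peak shared with another protein-coding gene was found at 9 of the 35 genes (25.7%), near the share over all genes with a promoter peak (602 of 2804, 21.5%). In 8 of these 9 the other gene lay on the opposite strand, and in 1, Med20, on the same strand.

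**Figure D5:**
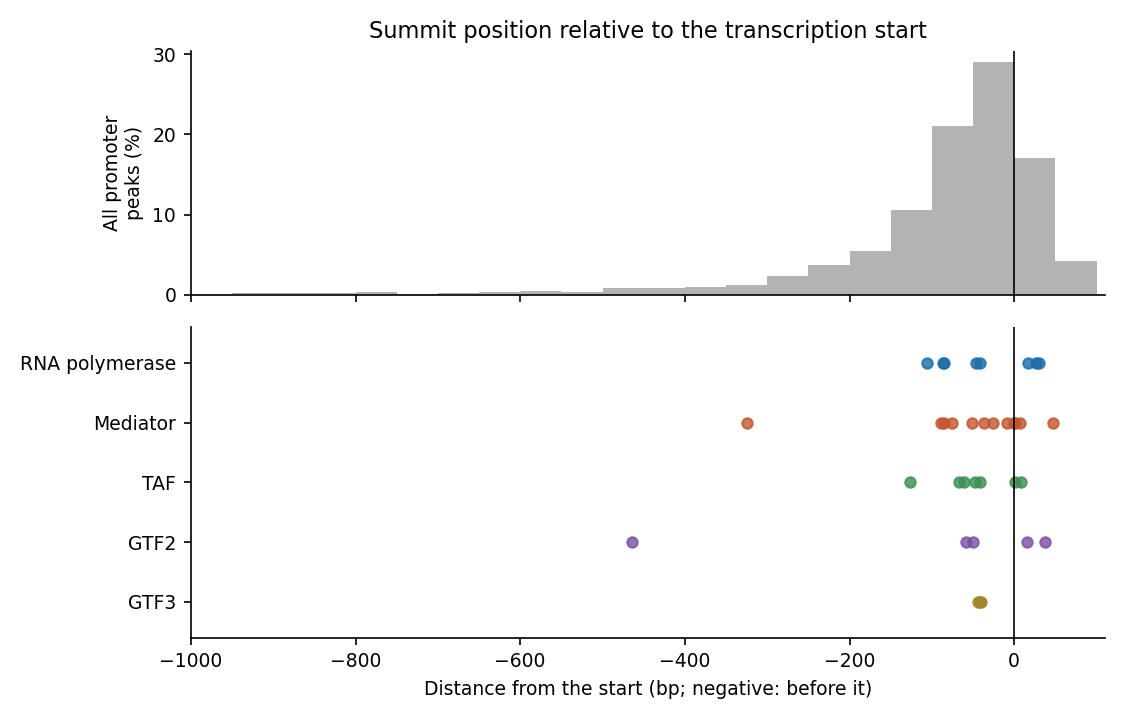
Position of the summit relative to the transcription start (x axis, bp, negative before the start). The upper panel gives the percent of all 2607 promoter peaks in bins of 50 bp, measured to the nearest start of any gene, and the lower panel 1 point for each of the 35 genes by class, measured to its own start; most points lie within 100 bp of the start, and Gtf2a1 (464 bp before) and Med20 (325 bp before) lie farthest from it.

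The motif was found at most of these peaks, but never as the exact palindrome. A copy with at most 1 mismatch lay within 100 bp of the summit at 30 of the 35 (85.7%), against 1721 of all promoter peaks (66.0%). In 27 of the 30 the copy was centred within 25 bp of the summit, and the median distance was 10.5 bp. Over all promoter peaks this held for 1305 of 1721, with a median distance of 12.5 bp. Exact palindromes lay near 285 of all promoter peaks (10.9%) and near none of the 35. The peaks without a copy were those of Polr1a, Polr1c, Med22, Med9 and Taf13. The 30 peaks with a copy had a median fold enrichment of 11.3 and the 5 without had 8.58. Over all promoter peaks these medians were 12.9 and 8.58.

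Positions in the palindrome are counted from 1 at its 5′ end, and a change is written as palindrome base, position, base found. Of the 30 copies with 1 mismatch, 20 (66.7%) had it at position 5 or 6, in the centre of the palindrome, and 10 at an outer position. The central share was similar over all promoter peaks (1033 of 1436, 71.9%). The form of the copy is given for all but Taf7 and Taf4b. The commonest was GCGCAGGCGC (T6G, or A5C on the other strand), at 10 genes: Gtf2f2, Gtf2h5, Gtf3c1, Gtf3c2, Med11, Med28, Polr2c, Polr2e, Taf12 and Taf4. This form was the best copy at 553 of all promoter peaks. GCGCACGCGC (T6C) was found at Gtf2a1, Gtf2i, Med18, Med26 and Polr2h, and GCGCAAGCGC (T6A) at Med20, Med25 and Polr2f.

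Outer mismatches were of 4 kinds. ACGCATGCGC (G1A) was the best copy at Gtf2f1, Med15, Polr2b, Polr2j and Taf1a, and at 151 of all promoter peaks. GAGCATGCGC (C2A) was found at Gtf3a, Med17 and Taf6, with fold enrichments that ranged from 5.84 at Taf6 to 36.2 at Gtf3a. Med7 held GCACATGCGC (G3A) and Med4 held GCGCATGCGA (C10A), the latter the best copy at 7 of all promoter peaks. The median fold enrichment was 10.9 for the 20 peaks with a central mismatch and 12.4 for the 10 with an outer one, and the ranges, 8.03 to 17 and 5.84 to 36.2, overlapped.

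Read from the sequence, a copy of the motif and a peak nearly coincided in these genes. Promoters of 33 of the 105 genes (31.4%) held a copy with at most 1 mismatch, and 31 of those 33 (93.9%) had a promoter peak. Over all genes, 2544 promoters (12.1%) held one, and 1918 of them (75.4%) had a peak. The 4 genes with a peak and no copy in the promoter were Polr1a, Polr1c, Med9 and Taf13, while Med22 held one farther than 100 bp from its summit. Exact palindromes were in 367 promoters overall (1.75%) and in none of the 105. Of the 70 genes without a promoter peak, 68 had at least 2 mismatches in their closest match. The genes with and without a peak had median GC contents of 61.8% and 62.0%, and their median CpG ratios were 0.936 and 0.832.

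Polr2i and Taf11 were the 2 genes whose promoters held a copy without a promoter peak, at chr7:30231986-30232015 and chr17:27909144-27909173.
Polr2i: tgtaagttcgGCGCATGTGCactggccttg
Taf11: gccgagcctgGCGCAGGCGCggtctacgcc

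The Taf11 copy, 84 bp after the start, has the form that was commonest under the peaks of the 35 genes, and the nearest summit was 51287 bp away. The Polr2i copy lay 74 bp before the start and inside the bounds of a peak (chr7:30231925-30232446, fold enrichment 18.1, −log10 q-value 53.7) whose summit was 209 bp after the start, past the limit of the promoter. That peak is a promoter peak of Tbcb. Within 100 bp of its summit lay a pair of further copies, of which 1 was the exact palindrome. Polr2a, the largest subunit of Pol II, had a still stronger peak with its summit 381 bp after the start, in sequence annotated as untranslated or as a non-coding exon (fold enrichment 23.4, −log10 q-value 86.6, chr11:69757989-69758380), again with a pair of copies near the summit. The copies near both summits, in windows of 30 bases at chr7:30232228-30232257, chr7:30232302-30232331, chr11:69758231-69758260 and chr11:69758173-69758202, are shown because these were the strongest peaks of the 105 genes with a summit just past the promoter window.
Polr2i, 168 bp after the start: taaggaacccGCGCATGCGCgcagcatcgc
Polr2i, 242 bp after the start: tagcgcgcccGCGCAAGCGCagaaggctca
Polr2a, 388 bp after the start: agcgaggtttGCGCCTGCGCagcgcgcctg
Polr2a, 446 bp after the start: tccggggacaGCGCATGCCCgctgcgcacc

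Summits lay within 5000 bp of a start in 5 of the 70 genes without a promoter peak, all inside the gene. Besides Polr2a, Polr2i and Polr3b, these were Gtf2ird2 (176 bp after the start, fold enrichment 8.85, 1 copy) and Med31 (431 bp after the start, 5.25, no copy, in the promoter of 4930563E22Rik). With promoters extended to 500 bp after the start all 5 were counted, which gave 40 of 105 genes (38.1%) and 1 of 10 Pol III-specific genes. The share over all genes was then 14.7% with 2000 bp before the start and 14.1% with 500 bp before it. For the other 65 genes the nearest summit was at least 6135 bp away, with a median distance of 103271 bp.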

How the data were processed

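The authors sequenced single-end reads, mapped them to mm10 with Bowtie, kept uniquely mapped reads and called peaks with MACS2 against input DNA. The methods name a blacklist of a human build and the broad option, whereas the deposited list holds narrow peaks with summits. The peak names carry the title of 1 library, and the reporting summary lists 1 NRF1 ChIP library with its input. Per peak, the authors deposited a fold enrichment (a ratio to the control background), −log10 p-values and q-values, a score derived from the q-value and the offset of the summit. Of the peaks, 7 had a q-value above 0.01. The length of the list is not the NRF1 peak number stated in the paper, so another list may have been counted there. The reporting summary names an FDR limit and a fold range for its counts. Whether these account for the difference was not tested. Read depth is unknown, so values carry no counting interval.

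Starts were those of 45756 known RefSeq transcripts. Genes were grouped by textbook complex, and both these groups and the gene rule were chosen with earlier results of these data known. Some genes without a promoter peak were counted but are not reported by name here. Every gene with a promoter peak was named, with full values for the 10 highest and the highest of each complex. Wilson intervals of shares treat genes as independent, which neighbours and paralogs are not. No test between samples was possible with 1 list. Windows, thresholds, overlap rule, start set and motif limits were varied. Scripts used Python 3.11.15, pandas 2.3.3, numpy 2.4.6 and scipy 1.17.1 and were tested on simulated peaks.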

Additional observations from a re-analysis of the deposited data

How the results depend on the processing

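No paired analysis was possible because the data are 1 list of peaks, and for the same reason no replicate could be left out. Over 10 results and 74 alternatives, 72 values stayed within 1.5 times the reported one. With CpG-rich starts only, the share of all genes with a promoter peak moved from 13.4 to 24.2%. With no mismatch allowed, the number of the 35 peaks with a motif moved from 30 to 0. The number of the 105 genes with a promoter peak was 40 with promoters of 2000 bp upstream and 500 bp downstream (38.1%, against 14.7% of all genes). It was 40 with 500 bp on either side (38.1% against 14.1%) and 37 with any overlap (35.2% against 14.1%). At a fold enrichment of at least 5 it was 34, without Med9 (32.4% against 12.7%). At a q-value of at most 1e-05 it was 35 (33.3% against 12.8%). Adding starts of known non-coding transcripts, chosen after seeing the data, kept the same 35 genes. The Pol III-specific count was 1 with both of these windows, from Polr3b, and 0 otherwise. Weak sites may fall below the threshold of the list, and a gene without a peak is not shown to be unbound at a greater depth.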
